A study of Mus musculus with 2 samples.

Results

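Mir139 is the gene of miR-139, a microRNA whose precursor is cut from an intron of the phosphodiesterase gene Pde2a. It is 1 of 2202 annotated mouse microRNA genes counted here. It was chosen because its sense-strand count, scaled to a library total of 1000000 assigned reads (CPM), was the highest of them all. That level is therefore given as a description, with no test. The material is microRNA-seq, which reads RNA shorter than 30 bases, on total RNA. The tissue is left cerebral cortex, taken from adult males of the strain labelled 5xFAD/CAST at 8 to 10 months of age. 5xFAD is a transgenic model of amyloid deposition and CAST an inbred strain derived from wild mice, and the labels do not say which animals carried the transgenes. The data are 2 libraries of 1 group, biological replicates 1 and 2, whose tissue samples are separate but share a donor identifier. The spread between the libraries may thus be partly or wholly technical, and the test between them measures that spread only. No control group was analysed here, and no comparison between conditions was made.

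A microRNA is cut from a hairpin precursor, first in the nucleus and then by Dicer in the cytoplasm, which leaves a pair of arms named 5p and 3p. One arm is loaded into an Argonaute protein and pairs, mainly through bases 2 to 8 (the seed), with messenger RNAs, which are then repressed. miR-139 is known for high expression in the forebrain and, in tumours, for low levels and a restraining effect on growth and migration. Its host Pde2a encodes an enzyme that breaks down cAMP and is stimulated by cGMP, and that is abundant in forebrain neurons.

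The precursor of Mir139 lies at chr7:101475376-101475443 on the plus strand (mm10). Its sequence in RefSeq (GRCm38.p6, the same assembly) is shown first because every Mir139 read counted here was assigned to these 68 bases. Capitals mark the 5p and then the 3p arm:
Mir139 precursor: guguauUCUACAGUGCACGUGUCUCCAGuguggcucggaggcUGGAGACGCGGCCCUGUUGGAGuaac
The mature arms follow with the seed in capitals, beside the 5p arms of the 3 genes next below Mir139 in level, to show which of them share a seed:
miR-139-5p: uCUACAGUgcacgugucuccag
miR-139-3p: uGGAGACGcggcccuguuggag
let-7g-5p: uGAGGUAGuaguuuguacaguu
let-7b-5p: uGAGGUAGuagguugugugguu
miR-744-5p: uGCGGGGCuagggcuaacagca
These are reference sequences, and whether the sampled strain carries them was not examined. The counts are per precursor gene, so 5p and 3p reads of Mir139 cannot be told apart.

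The 5p arm spans bases 7 to 28 of the precursor and the 3p arm bases 43 to 64, with 14 bases between them. A structure predicted with RNAfold had a minimum free energy of -35.6 kcal/mol and paired 50 of the 68 bases. In it, 19 of the 22 bases of the 5p arm paired with the 3p arm, including 6 of its 7 seed bases, and the 3p seed was paired at all 7 bases. The terminal loop of the prediction held 7 bases. The 3p arm is the richer in G and C, at 68.2% against 54.5% for the 5p arm, and both are above let-7g-5p at 36.4%.

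Mir139 had 661453 sense reads in replicate 1 and 529086 in replicate 2. These are 134185 and 119128 CPM, a mean of 126656 ± 10647 CPM (SD, n = 2). Mir139 held the first rank in each library. As a share of assigned reads this was 13.4% in replicate 1 (exact Clopper-Pearson 95% interval 13.39 to 13.45%) and 11.9% in replicate 2 (11.88 to 11.94%), intervals that cover counting error only.

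The share shrank with every wider denominator. Of the reads that mapped anywhere, Mir139 took 5.42% in replicate 1 and 4.74% in replicate 2. Of all reads, it took 4.03% and 3.11%. The libraries held 16403925 and 16991914 reads, of which 30.1% and 26.1% were assigned to microRNA genes. Reads that mapped to several places, which are kept out of every gene count, were 38.5% and 33.0%, or 9.56 and 10.6 reads for each Mir139 read.

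**Figure D1:**
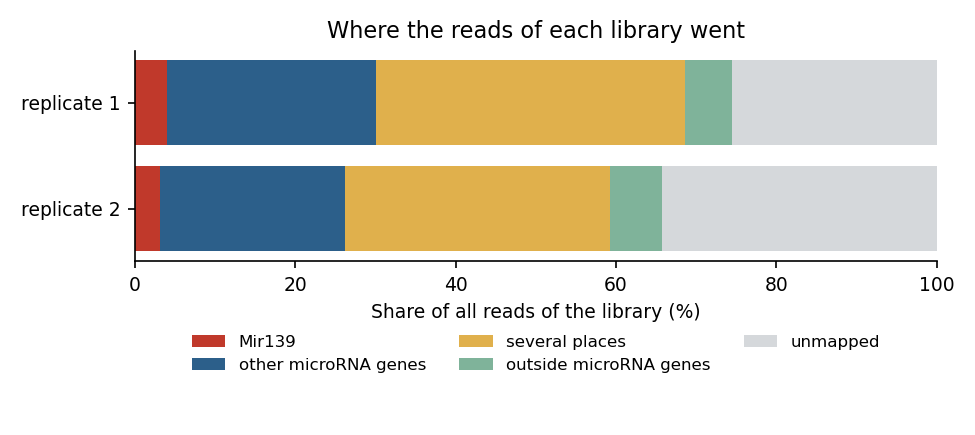
Share of all reads (%, horizontal axis) in each library (bars), split into Mir139, the other microRNA genes, reads that mapped to several places, reads outside microRNA genes and unmapped reads. Mir139 takes 4.03% in replicate 1 and 3.11% in replicate 2, and the reads that mapped to several places are the largest block in replicate 1 at 38.5%.

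All Mir139 reads lay on the annotated strand. The count without regard to strand equalled the sense count in each library, and the opposite strand had 0 reads, which allows up to 0.000454% of the gene's reads in replicate 1 and 0.000567% in replicate 2. Over all microRNA genes, counts on the opposite strand were 6.62% and 6.70% of the sum of sense and opposite counts. A count of 0 there was not particular to Mir139. Mirlet7g, Mir744 and Mirlet7i also had 0 opposite reads in each library, and Mirlet7b had 7 in replicate 1 and 9 in replicate 2. No other microRNA gene is annotated on the strand opposite to Mir139 within its 68 bases.

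The gene next below Mir139 was Mirlet7g, a member of the let-7 family, which promotes differentiation, with 494073 and 497094 reads. Mir139 stood above it by a ratio of CPM of 1.34 in replicate 1 and of 1.06 in replicate 2, a mean of 1.20 ± 0.194 (SD, n = 2). The lower of the Mir139 levels, 119128 CPM, lay above the higher of the Mirlet7g levels, 111925 CPM, so the values of these genes did not overlap. The mean gap, 20579 ± 18917 CPM, was nevertheless close to its own spread, and with 2 libraries an exact sign test, two-sided, cannot go below p = 0.5. In reads, the lead was 167380 in replicate 1 and 31992 in replicate 2. These leads equal 2.65% and 0.570% of the reads that mapped to several places. How such reads divide among genes was not tested, so the first place holds for reads assigned to 1 gene only.

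Levels are reads per gene, and their relation to numbers of molecules was not examined, so the order is one of reads. The levels are also not divided by length. The mature arms of Mir139 and Mirlet7g are all 22 bases long, so dividing by that length leaves the ratio at 1.20. The precursor genes are 68 and 88 bases long, and per base of the precursor the mean ratio was 1.55.

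**Figure D2:**
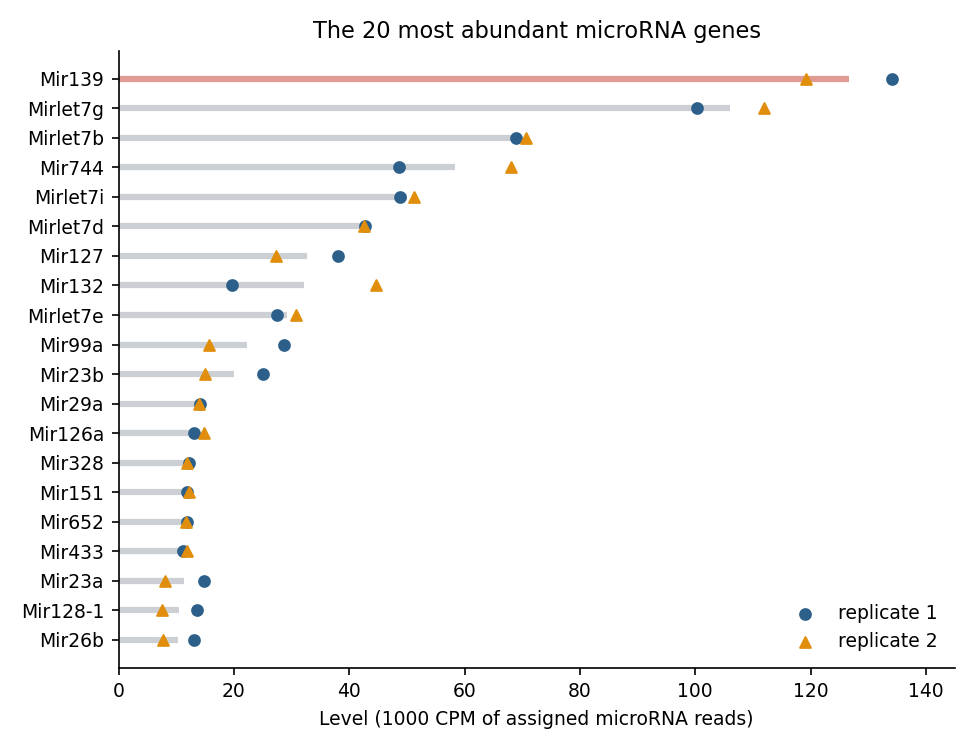
Level (horizontal axis, units of 1000 CPM) of the 20 most abundant microRNA genes, with replicate 1 as circles, replicate 2 as triangles and the mean as a line. Mir139, at 134185 and 119128 CPM, lies to the right of Mirlet7g in each library, and the next gene, Mirlet7b, is at a mean of 69806 CPM.

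Below Mirlet7g the levels fell away. Mirlet7b, another let-7 member, was at 69806 ± 1176 CPM, and the ratio of Mir139 to it was 1.95 in replicate 1 and 1.69 in replicate 2. Mir744, whose host Map2k4 encodes a stress-pathway kinase, was at 58345 ± 13748 CPM. The next 7 in order were Mirlet7i, Mirlet7d, Mir127, Mir132, Mirlet7e, Mir99a and Mir23b, and the ratios of Mir139 to the last of these were 5.36 and 7.99. Of the 10 neighbouring pairs from Mir139 down to Mir23b, 5 had overlapping values in the 2 libraries: Mir744 with Mirlet7i, Mir127 with Mir132, Mir132 with Mirlet7e, Mirlet7e with Mir99a, and Mir99a with Mir23b. Within a library, Mir99a stood above Mir23b each time (28643.5 over 25038.2 CPM in replicate 1, 15747.5 over 14907.7 CPM in replicate 2). In the other overlapping pairs the order changed between the libraries, so it is not resolved by the data.

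The seeds of Mir139 belong to it alone among the mature microRNAs in the RefSeq table, which lists 1738 of them and holds a mature sequence for 374 of the 417 genes detected (at least 10 reads in each library). No other entry shares bases 2 to 8 of either arm. For the 5p arm no other entry shares even bases 2 to 7, and for the 3p arm the sole such entry is miR-6397, whose gene Mir6397 had no read in either library. The longest stretch of miR-139-5p found in any other RefSeq precursor was 9 bases, and that of miR-139-3p was 10 bases, searched on the transcribed strand. For let-7g-5p it was 17 bases and for let-7b-5p it was 16. Among 141767 GENCODE M21 transcripts, exact copies of either Mir139 arm occurred in Mir139 itself and in no other gene. The genome outside annotated transcripts was not searched.

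Grouped by seed, with each gene counted once in its most abundant group, Mir139 moved from first to the second place. The group led by let-7g-5p, with 13 genes that share the let-7 seed printed above, took 30.8 ± 1.51% of the assigned reads. That is 2.22 times the share of Mir139 in replicate 1 and 2.68 times in replicate 2. Within this group, let-7c-5p and let-7f-5p are each made from 2 of the 13 genes. Reads of such an arm can map to several places and then enter no gene count. The share of the group and both ratios may therefore be too low. Mir139, a group of 1 gene, took 12.7 ± 1.06%. Behind it came Mir744, also alone, at 5.83 ± 1.37%. The group of Mir99a, Mir99b and Mir100 took 3.42 ± 1.55%, and Mir132 with Mir212, whose transcription follows neuronal activity, took 3.28 ± 1.78%. The last 2 groups overlapped in their values.

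**Figure D3:**
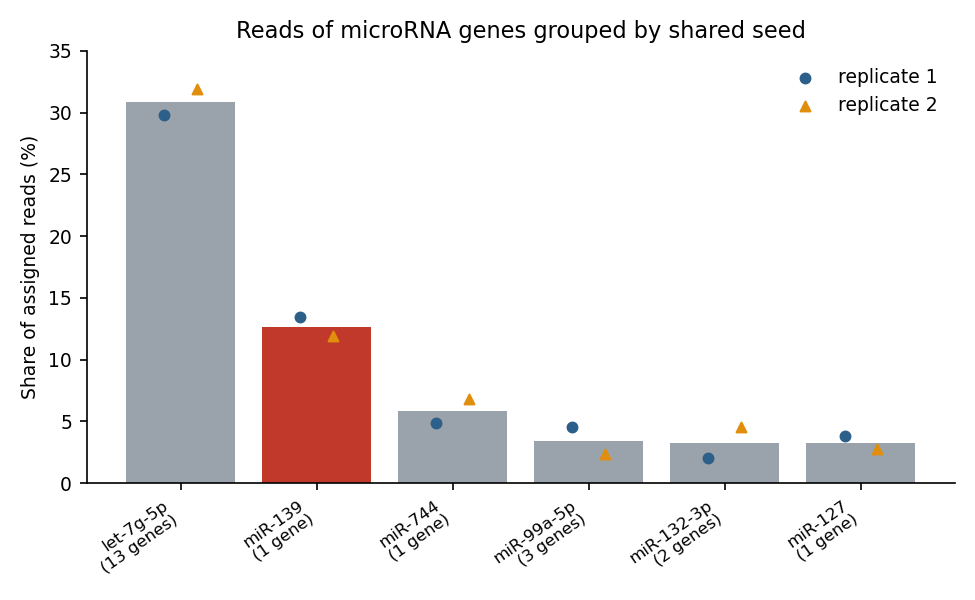
Share of assigned reads (%, vertical axis) for the 6 most abundant groups of microRNA genes that share bases 2 to 8 of a mature arm, each gene counted once. Bars are means, and points are the 2 libraries. The group led by let-7g-5p holds 13 genes and 30.8%, and Mir139 alone holds 12.7%.

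Mir139 is intronic in every annotated transcript of Pde2a that spans it. Of these there are 10, and they give 3 forms of the intron. In the protein-coding transcripts Pde2a-201, Pde2a-202, Pde2a-204 and Pde2a-212 it is the second intron, of 29902 bases, with Mir139 lying 23907 bases after the upstream exon and 5927 bases before the downstream exon. Other transcripts carry an extra upstream exon that leaves an intron of 19829 bases, or start later and leave 28937 bases, and all end at the same downstream exon. Mir139 sits 53.7 kb from the annotated start of Pde2a, whose length is 91.1 kb. A second annotated gene, Gm45837, overlaps Pde2a on the same strand, and Mir139 is in an intron of it too. RNA of Pde2a itself is too long for this assay and was not measured.

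**Figure D4:**
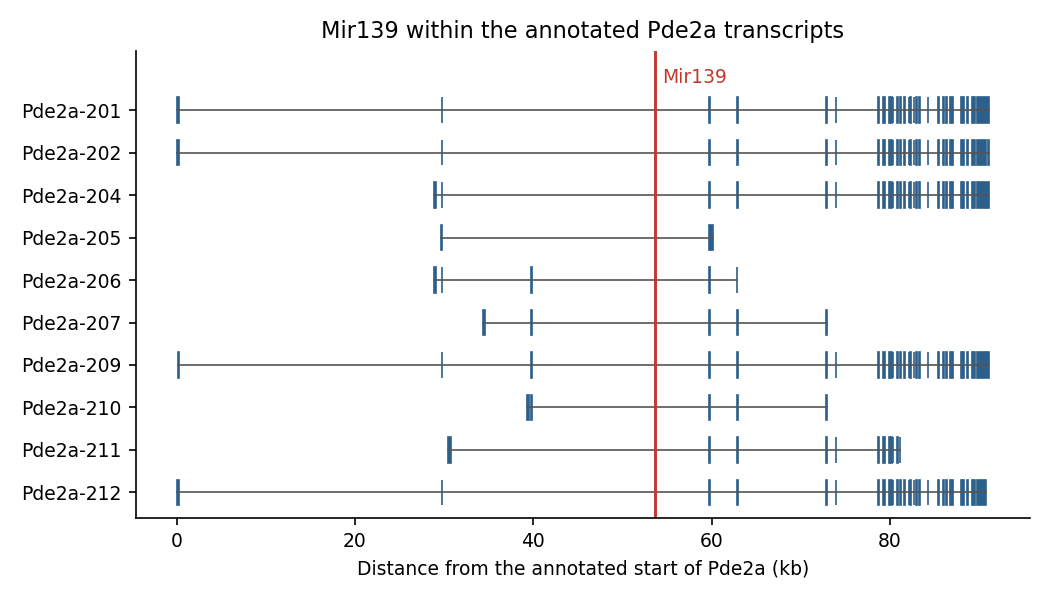
Annotated transcripts of Pde2a that span Mir139 (rows), with exons as blocks and introns as lines, against the distance in kb from the start of the gene. The vertical line marks Mir139 at 53.7 kb, in an intron of all 10 transcripts.

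Mir139 has no other microRNA gene close to it. The nearest other microRNA gene before it is Mir3102, 593 kb away on the minus strand, at 618 ± 77.5 CPM. The nearest after it is Gm22655, at 406 kb, with no read in either library, and the nearest detected one on that side is Mir7059, 25104 kb away, with 26 and 31 reads. By contrast, 36.9% of the detected genes, and 10 of the 20 most abundant, had another detected microRNA gene within 10 kb on either strand. Mir139 was not extreme in this respect, since 42.0% of detected genes lay farther from their nearest detected neighbour. Chromosome 7 carries 153 microRNA genes, of which 24 were detected, and Mir139 alone gave 88.3 ± 0.225% of their reads. The next of them, Mir330, was at 9019 ± 73.7 CPM.

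Introns of protein-coding genes held 741 of the 2202 microRNA genes, and 171 of the 741 were detected, beside 18.9% detected over all genes. The intronic genes gave 48.3 ± 0.550% of the assigned reads. Mir139 made up 27.6% of these intronic reads in replicate 1 and 24.9% in replicate 2. The median level of the detected intronic genes was 57.3 CPM, below the 126 CPM of the other detected genes. The most abundant after Mir139 were Mirlet7g in Wdr82, Mir744 in Map2k4, Mirlet7e in Spaca6 at 29123 ± 2260 CPM and Mir23b in 2010111I01Rik at 19973 ± 7163 CPM.

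Set beside Mir139 next is a list of 25 microRNAs, written with earlier results of these data known. It was drawn up as lying, like Mir139, in genes known from the nervous system or from its signalling. How well each host meets this was not examined, and hosts such as Mest, Klhl3 and Srebf2 are not particular to the nervous system. By the annotation 22 of the 25 microRNAs were found in an intron of a protein-coding gene, all but Mir330, Mir592 and Mir190b. The detected members were 23 of 25, and the list as a whole gave 4.68% of the assigned reads in replicate 1 and 3.87% in replicate 2. Of all 2202 genes 18.9% were detected. The share of the list may be too low, since Mir128-1, Mir128-2, Mir218-1 and Mir218-2 share an arm exactly with another gene and can lose reads that map to several places. Its most abundant members were Mir128-1, a neuronal microRNA in R3hdm1 (10524 ± 4287 CPM), then Mir330, and Mir149 in Gpc1 (6633 ± 160 CPM). Mir326, in an intron of the arrestin gene Arrb1 and also on chromosome 7, was at 505 ± 99.3 CPM. The median of the 25 was 203 CPM, and that of all 2202 genes was 0.

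Lists of microRNAs typical of single cell types were set beside Mir139 as a check of the tissue. Detection did not set neurons apart: 23 of 25 listed neuronal genes were detected, as were 8 of 8 for astroglia, 6 of 7 for microglia with leukocytes, 3 of 5 each for vessels and oligodendrocytes, 3 of 4 for red blood cells and 4 of 9 for liver, gut and pancreas. Over all 2202 genes the share detected was 18.9%. The neuronal list gave 7.26 ± 0.667% of the reads, led by Mir132, Mir128-1 and Mir137. Its share was 6.78% in replicate 1 and 7.73% in replicate 2, while Mir132 alone went from 19682 to 44698 CPM. By the binomial test given below, 16 of its 23 detected members were lower in replicate 2 and 5 were higher. Over all detected genes these shares were 34.5% and 24.7%. The astroglia list gave 4.20% in replicate 1 and 3.40% in replicate 2. Without Mir132 the neuronal list would stand above astroglia in replicate 1 and slightly below it in replicate 2. Lists for astroglia (3.80 ± 0.565%, led by Mir23b, Mir29a and Mir29c), vessels (2.11 ± 0.0986%, Mir126a, Mir143 and Mir145a), oligodendrocytes (0.451 ± 0.158%, Mir338, Mir219a-2 and Mir219a-1) and microglia with leukocytes (0.201 ± 0.0107%, Mir150, Mir146 and Mir142) took less. Those for red blood cells (0.0345 ± 0.0363%, Mir451a, Mir144 and Mir486) and for liver, gut and pancreas (0.0511 ± 0.00902%, Mir375, Mir122 and Mir194-2) were near 0. The neuronal share is too low by an unknown amount: 13 of the 21 members with a mature sequence in the RefSeq table share an arm exactly with another gene, and reads that map to several places are in no gene count. Mir9-1, for example, stood at 33.4 CPM and Mir124a-1, also made from several loci, at 3.48 CPM. Other lists can lose reads in the same way. Of their members with a mature sequence, 3 of 8 for astroglia share an arm exactly, as do 2 of 5 for oligodendrocytes. For liver, gut and pancreas it is 2 of 8, and for microglia with leukocytes 0 of 7. For red blood cells it is 0 of 3 and for vessels 0 of 2. Members of the 5-gene vessel list without a mature sequence could not be checked. Mir139 shares neither arm, so its level is not set against these sums. In bulk tissue a level cannot be assigned to a cell type, and more cells that make miR-139 and more miR-139 per cell cannot be told apart.

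Between the libraries, Mir139 was lower in replicate 2 by a small margin. The log2 ratio of replicate 2 to replicate 1 was -0.17 (exact 95% interval -0.18 to -0.17), so replicate 1 stood 1.13 times as high. The exact two-sided binomial test, which compares these 2 libraries and not conditions, gave an adjusted p too small for the software to represent after Benjamini-Hochberg adjustment over 417 genes. At this depth small differences pass: 59.2% of the detected genes differed by this test, 34.5% as lower and 24.7% as higher in replicate 2. Scaled by all reads in place of assigned reads, the share of lower among the differing genes moved from 58.3% to 73.0%, and the log2 ratio of Mir139 became -0.37. A difference by this test was thus the rule among detected genes.

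In size, the gap of Mir139 was below the median of the detected genes and in the middle of those next to it in level. Of the 10 genes next below Mir139, 5 lay closer together between the libraries. Of the 417 detected genes, 119 lay closer together between the libraries, and of the 96 genes at a mean of 1000 CPM or more, 33 did. The median gene of these 96 was 1.27-fold apart. The coefficient of variation of Mir139 was 8.41%, against a median of 16.8% over the same 96 genes. Mirlet7g moved the other way, with a log2 ratio of 0.16 (0.15 to 0.16), so the lead of Mir139 over it was narrower in replicate 2. Among those 10 genes Mir132 was the widest apart at a log2 ratio of 1.18 and Mirlet7d the closest at -0.01.

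**Figure D5:**
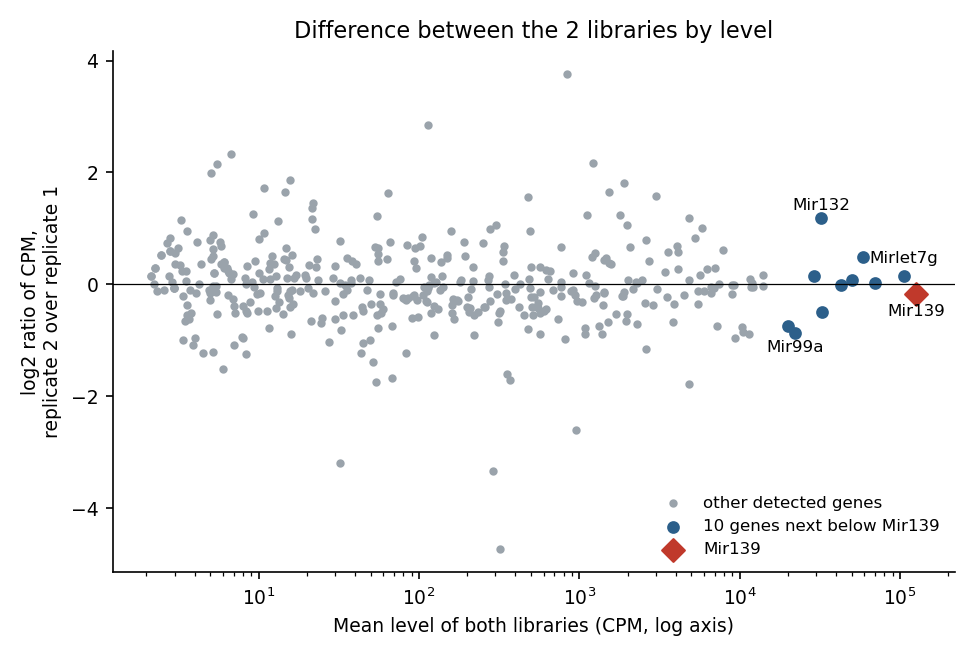
The log2 ratio of CPM, replicate 2 over replicate 1 (vertical axis), against the mean level in CPM on a log axis, for the 417 detected genes. Mir139 (diamond) lies at -0.17, the 10 genes next below it (large circles) reach from -0.86 at Mir99a to 1.18 at Mir132, and grey points are the other genes.

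Among genes at a mean of 1000 CPM or more, those with a log2 ratio nearest to that of Mir139 were Mir191 (-0.16), Mir872 (-0.19), Mir361 (-0.19), Mir324 (-0.15) and Mirlet7c-2 (-0.15). This likeness rests on 2 libraries only. Their mean levels ran from 1269 ± 117 CPM at Mir872 to 9013 ± 720 CPM at Mir191, far below Mir139.

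The seed of miR-139-5p pairs with the 7 bases ACTGTAG in a messenger RNA. These letters were looked for, on the sense strand, in the longest annotated 3' UTR of 8 genes that work on miR-139 has named as targets, taken from general knowledge of the field and not measured in these data. At least 1 match was found in 5 of the 8, and in 11.01% of the UTRs of all 20997 protein-coding genes examined. Genes may be named as targets because they hold such a match, so the share among the 8 is a description and tests nothing. The comparison is uneven, as the median UTR was 2405 bases in the 8 and 962 in all, so the share among UTRs within 10% of the same length is given with each gene. The sites are shown for those 5 genes, with the match in capitals:
Fos: tatatccatgtACTGTAGtccttcagcgt
Jun: ctgcaatagagACTGTAGattgcttctgt
Igf1r, first: ctgttttaatcACTGTAGaaaagcccctg
Igf1r, second: ttttcttctacACTGTAGgtgacactctg
Notch1: ctacatgcaaaACTGTAGgtaatgaaaat
Cxcr4, first: ctgtgtgtaggACTGTAGaactgtagagg
Cxcr4, second: aggactgtagaACTGTAGaggaagaaact
Fos and Jun encode the subunits of the transcription factor AP-1, which neuronal activity induces. Their UTRs of 815 and 1233 bases held 1 match each, where 6.39% and 9.57% of UTRs of such length held any. Igf1r, the receptor of insulin-like growth factor, held 2 in 7267 bases (45.0% of UTRs of that length hold any). The receptor Notch1 held 1 in 1628 bases (13.7%), and the chemokine receptor Cxcr4 held 2 in 644 bases (5.43%), whose printed stretches overlap. Rock2, Foxo1 and Hdac4 held none in 3182, 6240 and 4568 bases, and neither did the host Pde2a in 1164 bases. A match is a stretch of letters and not a measured site, and a missing match says only that these letters are not in that window.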

How the data were processed

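MicroRNA-seq was measured in 2 libraries of left cerebral cortex. The authors deposited raw read counts per microRNA gene, made on mm10 with GENCODE M21, per the notes deposited with the files. For the aligner and counter, names and settings were not given in the sources used here. Each table has 3 count columns (without strand, sense, opposite strand) and 4 totals of unassigned reads, which stayed out of library sizes. The sense column was used, with 4929428 assigned reads in replicate 1 and 4441328 in replicate 2, so that 1 read is 0.203 and 0.225 CPM. Symbols, coordinates and introns came from GENCODE M21, and sequences from RefSeq (GRCm38.p6) and, for 3' UTRs, the GENCODE transcripts.

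The libraries were compared with an exact binomial test (scipy 1.17.1), adjusted over the 417 genes with at least 10 reads in each, at a threshold of 0.05. The step was tested on simulated data that held counting error only. In the real libraries edgeR put the coefficient of variation beyond counting error, as 1 value for these genes, at 34.0%. The simulation thus says nothing of that spread. The precursor was folded with RNAfold 2.7.2. Alternatives were the counts without strand, scaling by edgeR 4.0.16 TMM factors, by DESeq2 1.42.0 size factors or by other totals, other count minimums, single libraries and, added after the data were seen, division by length. Genes are named by rule: Mir139, the 10 next in level, the 5 nearest in ratio at 1000 CPM or more, genes sharing a seed or neighbouring on the chromosome, the 5 most abundant intronic genes and the 3 most abundant of each list. Mir326, Mir330, Mir592, Mir190b, Mir6397, Mir9-1, Mir124a-1, Mir128-2, Mir218-1 and Mir218-2 were named after their values were seen. The gene studied and the lists were chosen with earlier results of these data known.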

Additional observations from a re-analysis of the deposited data

How the results depend on the processing

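The level of Mir139 depends on the denominator. Per 1000000 assigned reads the mean was 126656. On the same scale it was 145110 relative to the reads of the other genes, 55705 with reads that mapped to several places added to the total, and 35730 relative to all reads. Under counts without strand, TMM factors and DESeq2 size factors it moved by less than 1 SD. Without replicate 1 the level was 119128 CPM and without replicate 2 it was 134185 CPM. The ratio to Mirlet7g, 1.20, cannot change with scaling. It was 1.06 and 1.34 with a single library, and 1.55 per base of the precursor. The log2 ratio between the libraries was negative under the 6 other scalings and counts, from -0.37 to -0.12. The other 2 alternatives, the count minimums, cannot change it, and its p is too small to represent under each, so the threshold says nothing of stability. Genes that differed numbered 247 of 417 (59.2%), 218 of 270 (80.7%) with at least 100 counts in each library and 275 of 766 (35.9%) with no minimum, so their share depends on the minimum. Under the other scalings it was 59.0 to 64.7%, and 57.7% without strand. The let-7 seed group was 2.44 times Mir139 as a mean of both libraries (2.22 and 2.68 in each). Without strand it was 2.20 times, but there its members Mirlet7e and Mirlet7f-1 had 0 reads. Mirlet7e had 135683 and 136443 sense reads. These ratios may be too low, since Mirlet7a-2 and let-7 reads that map to several places are left out. Counting error is small for Mir139 beside the spread between the libraries. No paired analysis was possible because the study has 1 group.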
